A study of Homo sapiens with 6 samples.

Results

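The AP-1 transcription factor family was followed in HaCaT, a human keratinocyte line that became immortal in culture without a viral oncogene. RNA was collected 72 hours after cells had received a lentivirus coding for a short hairpin RNA. The family was taken as 10 named genes, FOS, FOSB, FOSL1, FOSL2, JUN, JUNB, JUND, ATF3, BATF and MAFF, out of 18404 genes tested, and all 10 were measured, each by 1 probe set that carried no other gene. For 3 samples the hairpin targeted TP63, the gene of p63, a transcription factor needed by basal cells of the epidermis (shTP63), and 3 samples received a control hairpin vector (shControl). All 6 samples came from 1 cell line, carried a lentiviral vector and were read on 1-colour arrays. The labels name neither the hairpin sequences nor the number of hairpins, and they do not say that the replicates were separate cultures, so each p-value reflects only how far these samples varied, and that variation may be technical. The level of TP63 was not analysed here, so the direction of every difference rests on the sample labels.

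AP-1 is not a single protein but a set of dimers of basic leucine zipper proteins, in which the zipper holds the partners together and the basic region grips the DNA. JUN proteins pair with each other or with FOS proteins, whereas FOS proteins need a JUN partner, so the mix of members decides which dimers can form. Growth factor, stress and cytokine signals reach the family through MAP kinases, which raise its transcription and phosphorylate the proteins. In epidermis AP-1 is known for its part in the switch from proliferation to differentiation, in wound repair and in inflammation.

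The arrays held 32321 probe sets, and values are log2 intensities. The shControl arrays had a median over all probe sets of 7.45 ± 0.016 (SD, n = 3), the shTP63 arrays one of 7.56 ± 0.012 (SD, n = 3), and pairs of arrays within a group had r of 0.9962 to 0.9976 across probe sets. Olfactory receptor genes, 360 in all, are silent in most cells, and the 95th percentile of their means, 6.81, served as a measure of background, and all 10 family members lay above it. Of the keratinocyte markers, 8 of 8 measured lay above it, with a median level of 12.37 in shControl. Of 21 measured markers of fibroblasts, immune, endothelial and melanocytic cells, 12 lay under it. Among the 12 were the defining leukocyte gene PTPRC (4.31 in shControl and 4.27 in shTP63) and the endothelial gene PECAM1 (5.41 and 5.46). Above background lay 5 of 8 fibroblast, 2 of 6 immune, 1 of 4 endothelial and 1 of 3 melanocytic markers. These included the endothelial gene CDH5 (9.50 and 9.57) and the fibroblast genes COL1A1 (8.40 and 8.58) and LUM (7.92 and 8.10). The summed linear intensity of the 6 immune markers was 741 to 812 in shControl and 1084 to 1149 in shTP63, and that of the 8 fibroblast markers 1192 to 1232 and 1252 to 1335. Among the immune markers the macrophage gene CD68, which other cells also express, rose from 8.99 to 9.74, FCGR3A fell from 5.06 to 4.73, and the other 4 did not pass. The 4 endothelial markers summed to 881 to 932 and 919 to 954, the 3 melanocytic markers to 187 to 188 and 203 to 214, and the 8 keratinocyte markers to 57846 to 60051 and 49958 to 50756. Of the keratinocyte markers KRT5 fell by 0.50, KRT14 by 0.35, DSG3 by 0.31 and SFN by 0.60, LAMB3 rose by 0.33, and 3 did not pass. The part of these cell types in the results was not tested. Fewer cells of a type and less RNA per cell cannot be told apart in such bulk samples.

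Within the family JUN and FOSL1 rose and JUND and ATF3 fell, each by less than 1.5-fold, and these 4 calls held in all 14 alternatives tried. JUNB rose and FOS fell by about 1.1-fold with calls that were each lost on leaving out any of 5 of the 6 arrays. FOSL2, FOSB, BATF and MAFF did not pass the test. In limma's test with Benjamini-Hochberg adjustment over all genes, 3 of 10 members (30%) rose and 3 of 10 (30%) fell, where 16.4% of all genes rose, 25.1% fell and 41.5% passed in either direction. Falls made up 60.5% of the calls over all genes, and 81.7% with every array centred on its median, where 2 members rose and 4 fell. The groups did not overlap in 8 of 10 members, 4 with shTP63 above and 4 with shTP63 below, against 51.4% of all genes, made up of 20.9% above and 30.4% below. The median difference of the members was -0.04 on the log2 scale, and that of all genes tested was -0.01.

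**Figure D1:**
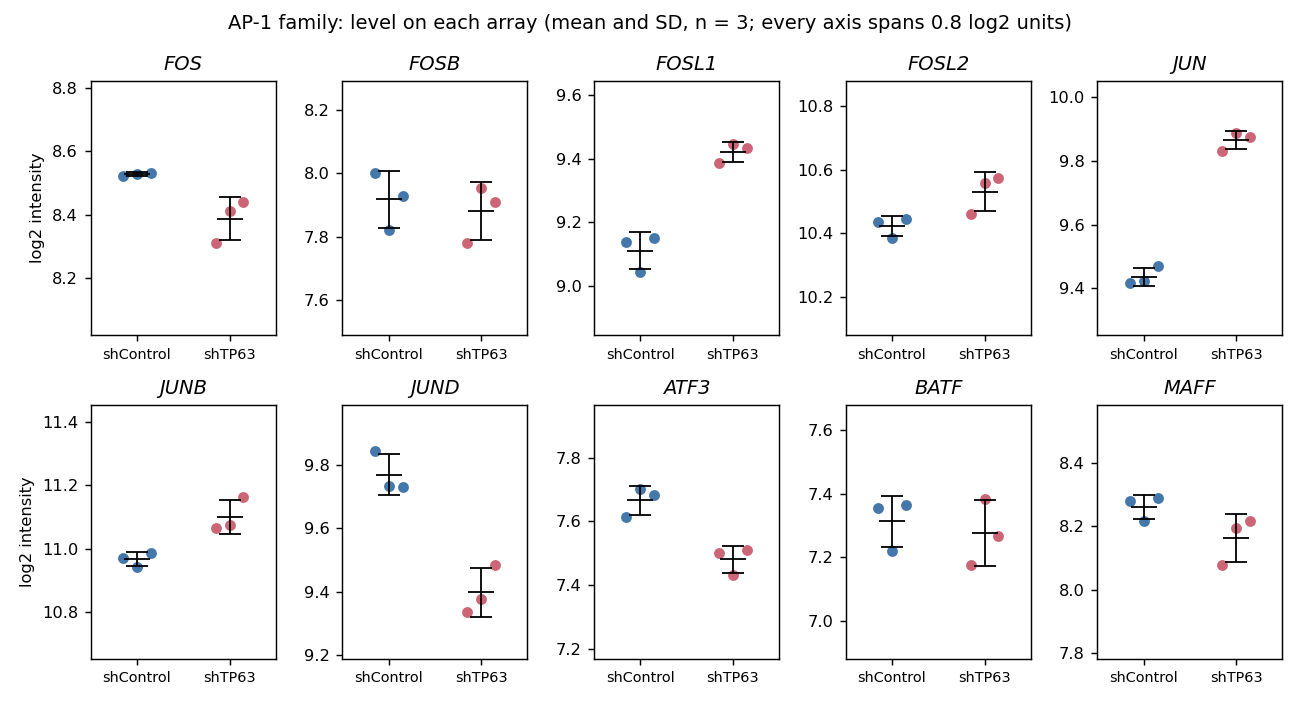
Level of each AP-1 family member on each array (y axis, log2 intensity; 1 point per array, bars are mean and SD, n = 3). JUN moved from 9.41 to 9.47 in shControl to 9.83 to 9.89 in shTP63, JUND moved the opposite way, and the groups overlap in FOSB and BATF.

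Of the JUN proteins, which can pair with each other or with FOS proteins, all 3 genes passed, in different directions. JUN, which encodes c-Jun, the member whose activity is raised by JNK phosphorylation, stood at 9.41, 9.42 and 9.47 in shControl replicates 1 to 3 and at 9.83, 9.89 and 9.87 in shTP63 (probe set 7916609). The lowest shTP63 array was above the highest shControl array by several times the spread within either group. The difference was 0.43 ± 0.042 (SE), or 1.35-fold, with a limma adjusted p of 6.51e-05, and 4.27% of all genes had a larger rise. JUND, the most constitutively expressed of these genes and an inhibitor of growth in many cells, stood at 9.84, 9.73 and 9.73 in shControl and at 9.34, 9.38 and 9.48 in shTP63 (probe set 8035445). The groups were again apart, with shTP63 below. The fall of JUND was 1.29-fold, a log2 difference of -0.37 ± 0.055 (SE), with a limma adjusted p of 0.000611, and 8.19% of all genes fell further. JUNB, which can oppose c-Jun in the control of proliferation and is abundant in epidermis, stood at 10.97, 10.94 and 10.99 in shControl and at 11.06, 11.07 and 11.16 in shTP63 (probe set 8026047). Its groups did not overlap, but the gap between them was no larger than the range within shTP63. JUNB rose by 0.13 ± 0.045 (SE), with a limma adjusted p of 0.0441. That call was lost without shControl replicate 1 (adjusted p = 0.0892), replicate 2 (adjusted p = 0.133) or replicate 3 (adjusted p = 0.0834) and without shTP63 replicate 2 (adjusted p = 0.0657) or replicate 3 (adjusted p = 0.117), in the same limma fit. It was also lost with every array centred on its median, where the difference was 0.02 (limma adjusted p = 0.683). Under the 2 other scalings the call was kept, at 0.20 after cyclic loess (limma adjusted p = 0.00762) and 0.16 after another quantile normalization (limma adjusted p = 0.0189).

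Of the FOS proteins, which bind DNA only with a partner, 1 gene rose, 1 fell and 2 did not pass. FOSL1 encodes FRA-1, a member without a strong activation domain that is known for its high level in migrating and transformed epithelial cells. It stood at 9.14, 9.04 and 9.15 in shControl and at 9.39, 9.45 and 9.43 in shTP63 (probe set 7949532), with the groups well apart. The difference was 0.31 ± 0.047 (SE), or 1.24-fold, with a limma adjusted p of 0.000673, and 7.57% of all genes had a larger rise. FOS, the short-lived immediate-early member, stood at 8.52, 8.53 and 8.53 in shControl and at 8.31, 8.41 and 8.44 in shTP63 (probe set 7975779). The shControl arrays were close together and the shTP63 arrays more spread, all of them lower. The fall of FOS was a log2 difference of -0.14 ± 0.048 (SE), with a limma adjusted p of 0.0420. That call was lost without shControl replicate 1 (adjusted p = 0.0832), replicate 2 (adjusted p = 0.104) or replicate 3 (adjusted p = 0.107) and without shTP63 replicate 1 (adjusted p = 0.114) or replicate 2 (adjusted p = 0.0660), in the same limma fit. It was kept under the 3 other scalings, at -0.25 with every array centred on its median (limma adjusted p = 0.00178), -0.19 after another quantile normalization (limma adjusted p = 0.00893) and -0.13 after cyclic loess (limma adjusted p = 0.0480). FOSL2, which encodes FRA-2, a member found in differentiating keratinocytes, stood at 10.44, 10.39 and 10.44 in shControl and at 10.46, 10.56 and 10.57 in shTP63. The groups did not overlap, yet the lowest shTP63 array lay close to the shControl arrays. The difference was 0.11 ± 0.048 (SE), with a 95% interval from 0.00 to 0.22 and a limma adjusted p of 0.101. Without shTP63 replicate 1 FOSL2 passed, at 0.14 (limma adjusted p = 0.0428), and it also passed after cyclic loess, at 0.18, and after another quantile normalization, at 0.16, whereas centring took the difference to 0.00. FOSB, another immediate-early gene, stood at 8.001, 7.823 and 7.930 in shControl and at 7.78, 7.95 and 7.91 in shTP63. The groups overlapped fully, with a difference of -0.04 and a 95% interval from -0.18 to 0.11.

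Of the 3 related factors, ATF3 fell and BATF and MAFF did not pass. ATF3 is a stress-induced factor that pairs with JUN proteins and often acts as a repressor. It stood at 7.62, 7.70 and 7.68 in shControl and at 7.50, 7.43 and 7.51 in shTP63 (probe set 7909610), so that every shTP63 array was lower. The fall of ATF3 was 1.14-fold, a log2 difference of -0.19 ± 0.046 (SE), with a limma adjusted p of 0.0102. MAFF is a small MAF protein, which has no activation domain of its own and works as a dimer partner. It stood at 8.28, 8.22 and 8.29 in shControl and at 8.08, 8.19 and 8.22 in shTP63, and the highest shTP63 array lay just under the lowest shControl array. The difference was -0.10, with a 95% interval from -0.21 to 0.02 and a limma adjusted p of 0.163. It passed as lower with every array centred on its median (-0.21, limma adjusted p = 0.00646) and after another quantile normalization (-0.18, limma adjusted p = 0.0119). BATF, which pairs with JUN proteins mainly in lymphoid cells, stood at 7.35, 7.22 and 7.36 in shControl and at 7.18, 7.38 and 7.27 in shTP63. The groups overlapped, with a difference of -0.04 and a 95% interval from -0.18 to 0.11.

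**Figure D2:**
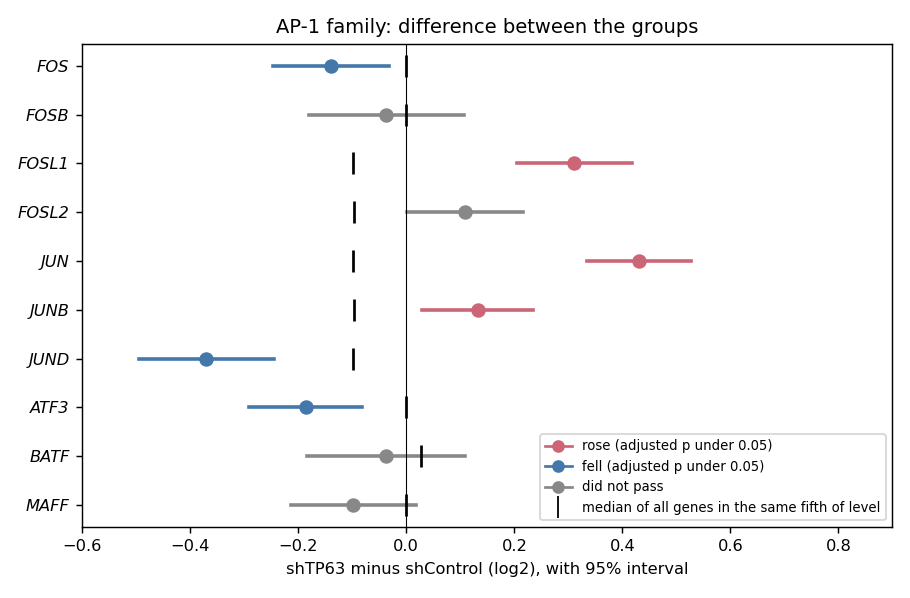
Difference of each AP-1 family member between the groups (x axis, shTP63 minus shControl, log2; points are the fitted difference, bars the 95% interval, colours the call). The intervals of FOSL1, JUN, JUND and ATF3 lie clear of 0. Those of FOS, JUNB and FOSL2 exclude 0 only narrowly, and FOSL2 did not pass after adjustment. The black ticks give the median of all genes at a like level, which is -0.10 for FOSL1, FOSL2, JUN, JUNB and JUND.

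The median difference of all genes varied with their level on these arrays. When genes were ranked by mean level and cut into 5 equal bins, the brightest bin, which holds FOSL2 and JUNB, had a median difference of -0.10, and so had the next, which holds FOSL1, JUN and JUND. The bin of FOS, FOSB, ATF3 and MAFF had a median of -0.00, and that of BATF 0.03. Members were also compared within each array, which no centring of arrays can change, by taking the log2 ratio of 2 genes of the same family and setting its shControl mean to 0. This was done for all 9 pairs within the JUN and FOS families after the single-gene values had been seen, so it is given as a description. The ratio of JUN to JUND lay between -0.09 and 0.07 on the shControl arrays and between 0.72 and 0.85 on the shTP63 arrays, a change of 0.80 ± 0.062 (SE). The ratio of JUNB to JUND changed by 0.50 ± 0.040 (SE) and that of JUN to JUNB by 0.30 ± 0.032 (SE). Among the FOS genes, the ratio of FOSL1 to FOS lay between -0.07 and 0.04 on the shControl arrays and between 0.41 and 0.49 on the shTP63 arrays, a change of 0.45 ± 0.042 (SE). The ratio of FOSL2 to FOS changed by 0.25 ± 0.020 (SE). The groups overlapped in the ratio of FOSB to FOS. The pairs share members, so they are not separate observations, and with 3 arrays against 3 an exact permutation test cannot give a two-sided p below 0.1.

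The members also shared a pattern among replicates that the groups do not explain. On shTP63 replicate 1 the value was the lowest of its group in 9 of 10 members, all but ATF3, while 37.1% of all genes had their lowest shTP63 value there. The median deviation of the members from their group mean was -0.07 on that array, against -0.01 for all genes. On shControl replicate 3 the value was the highest of its group in 7 of 10 members, against 35.2% of all genes. The median within-group SD was 0.049 for the members and 0.065 for all genes.

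**Figure D3:**
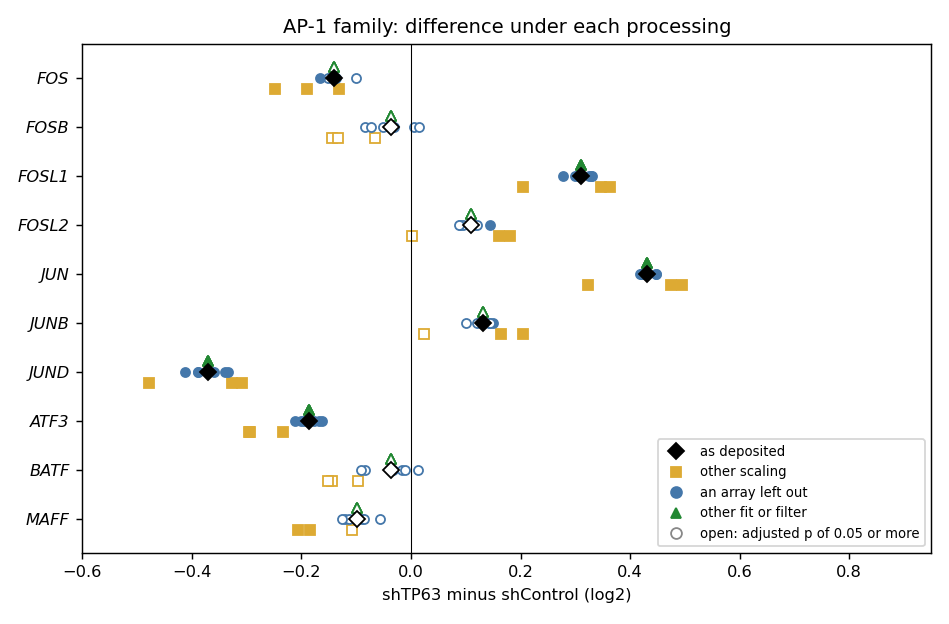
Difference of each AP-1 family member (x axis, shTP63 minus shControl, log2) as deposited, under other scalings, with 1 array left out and under other fits or filters; filled points passed at an adjusted p of 0.05 and open points did not. JUN, FOSL1, JUND and ATF3 are filled throughout, and FOSB and BATF are open throughout.

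The promoters of JUN, ATF3, JUND and MAFF are shown because each holds a complete binding element of the AP-1 and CREB factors, 1 kind shared by JUN and ATF3 and the other by JUND and MAFF. Promoters came from RefSeq on GRCh38.p14, 250 bases before the start site, and 9 of the 10 members matched, with 11 promoters, FOSL1 having no entry. The letters searched on both strands were the AP-1 element TGAGTCA, whose other strand reads TGACTCA, the cyclic AMP element TGACGTCA, which reads the same on both strands, the octamer TGACATCA known from the JUN promoter, TATAAA, and the CArG box, which binds serum response factor. No match overlapped another in the windows below, and capitals mark each match.
JUN, chr1:58784048-58784297, minus strand: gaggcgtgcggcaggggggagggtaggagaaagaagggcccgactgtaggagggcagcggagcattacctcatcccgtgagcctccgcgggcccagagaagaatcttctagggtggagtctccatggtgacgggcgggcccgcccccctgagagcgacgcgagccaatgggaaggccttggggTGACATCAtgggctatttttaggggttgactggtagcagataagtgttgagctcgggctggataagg
ATF3 (upstream start site), chr1:212565157-212565406, plus strand: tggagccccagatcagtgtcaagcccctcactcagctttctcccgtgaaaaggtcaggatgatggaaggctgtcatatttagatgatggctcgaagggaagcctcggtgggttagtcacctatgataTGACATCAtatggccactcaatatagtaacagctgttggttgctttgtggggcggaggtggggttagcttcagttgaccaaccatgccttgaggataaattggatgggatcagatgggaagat
JUND, chr19:18281623-18281872, minus strand: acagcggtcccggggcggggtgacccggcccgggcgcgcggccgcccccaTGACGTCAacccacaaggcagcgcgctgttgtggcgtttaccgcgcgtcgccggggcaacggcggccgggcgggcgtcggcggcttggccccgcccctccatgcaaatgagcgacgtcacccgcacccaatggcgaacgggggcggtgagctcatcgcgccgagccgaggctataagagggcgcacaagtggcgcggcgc
MAFF (upstream start site), chr22:38201744-38201993, plus strand: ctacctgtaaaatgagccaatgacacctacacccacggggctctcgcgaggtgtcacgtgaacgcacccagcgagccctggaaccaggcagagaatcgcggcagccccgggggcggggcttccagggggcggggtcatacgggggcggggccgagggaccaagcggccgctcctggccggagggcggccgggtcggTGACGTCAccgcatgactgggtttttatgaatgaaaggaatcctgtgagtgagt
The octamer TGACATCA stood in the promoters of JUN, which rose by 0.43, and of ATF3, which fell by 0.19 on the log2 scale. Of all 35116 promoters, 2.37% held it. The cyclic AMP element stood in the promoters of JUND, which fell by 0.37, and of MAFF, whose difference of -0.10 did not pass, and 1.65% of all promoters held it. TATAAA stood 25 to 33 bases before the start sites of FOS, FOSB and JUNB. In the other ATF3 window it lay much farther from the start site, at positions -230 to -225. Of all promoters, 10.7% held TATAAA. The AP-1 element was in 0 of the 11 member windows and in 4.2% of all promoters, and the CArG box in 0 of 11 and in 1.16%. A match is a description of the letters in this window only.

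By Pearson correlation over the 6 arrays, among the 13179 other genes above background, the genes most like JUN were TSPAN2 (r = 0.9999), C1S (r = 0.9996) and MELTF (r = 0.9994). TSPAN2, a tetraspanin, rose by 1.04 ± 0.052 (SE), C1S, a complement protease, by 0.89 ± 0.051 (SE), and MELTF, melanotransferrin, by 1.25 ± 0.063 (SE), all larger differences than that of JUN. The genes most like JUND were ZNF827 (r = 0.998), RBM15B (r = 0.9976) and IMPA2 (r = 0.9974), which fell by 0.19, 0.25 and 0.20 on the log2 scale. The 6 points form 2 groups that differ in both genes of each pair, and no p is given.

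Of 22 measured MAP kinases and neighbouring kinases, which carry signals to AP-1, 15 fell, 1 rose and 6 did not pass. That is 68.2% falling against 25.1% of all genes, with a median difference of -0.23. Bright genes fell more often, and 8 of the kinases lay in the brightest of the 5 bins, where 7 of them and 44% of all genes fell. Another 8 lay in the next bin, where 5 of them and 43% of all genes fell, and 6 in the middle bin, where 3 of them and 25.4% of all genes fell. RPS6KA5, which encodes MSK1, a nuclear kinase that acts on CREB and histones, stood at 8.87, 8.90 and 8.95 in shControl and at 8.20, 8.26 and 8.12 in shTP63, a log2 difference of -0.71 ± 0.050 (SE) at a limma adjusted p of 1.19e-05. The only rise was that of its relative RPS6KA2, a ribosomal S6 kinase of the ERK pathway, by 0.59 ± 0.045 (SE, limma adjusted p = 1.73e-05). The JNK-type kinase MAPK10 fell by 0.56 (SE 0.062), the p38-type kinase MAPK13 by 0.48 (SE 0.045) and MAP3K5, a stress kinase above both, by 0.47 (SE 0.048). Their limma adjusted p lay between 4.79e-05 and 0.000121. All 6 measured MAP kinase kinases fell, or 100% against 25.1% of all genes, and they are among the kinases counted by bin above. Of these, MAP2K1 (limma adjusted p = 0.0498) and MAP2K3 (limma adjusted p = 0.0410), named after their values were seen, passed narrowly. The groups overlapped in MAP2K3. MAPK8, the JNK gene best known for acting on c-Jun, differed by 0.01 and did not pass (limma adjusted p = 0.939), and is named after its value was seen. Of serum response factor and its cofactors, which drive FOS and other immediate-early genes, 3 of 5 (60%) fell and 1 (20%) rose. Of all genes 25.1% fell and 16.4% rose. In the brightest bin 1 of 1 fell, against 44% of all genes, and in the next 2 of 4, against 43%. ELK3 rose by 0.29 ± 0.042 (SE), while ELK1 fell by 0.21 (SE 0.048), ELK4 by 0.19 (SE 0.042) and SRF by 0.13 (SE 0.044). Their limma adjusted p lay between 0.000500 and 0.0416. The SRF call was lost in 8 of 14 alternatives, among them the fits without shControl replicate 1 (adjusted p = 0.111), replicate 2 (adjusted p = 0.0635) or replicate 3 (adjusted p = 0.120) and without shTP63 replicate 1 (adjusted p = 0.108) or replicate 2 (adjusted p = 0.0917).

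Of 18 measured bZIP genes that can pair or compete with the family, 7 (38.9%) fell and 2 (11.1%) rose, around a median of -0.10. Of all genes 25.1% fell and 16.4% rose. In the brightest bin 4 of 5 fell, against 44% of all genes, and in the next 2 of 4, against 43%. In the middle bin 0 of 2 fell, against 25.4%, and in the bin below 0 of 6, against 8.67%. In the dimmest bin 1 of 1 fell, against 4.43%. With every array centred on its median 12 of the 18 fell and 1 rose, around -0.21. NFE2L3, a cap'n'collar factor that binds DNA with small MAF proteins such as MAFF, stood at 9.22, 9.19 and 9.14 in shControl and at 10.85, 10.98 and 11.00 in shTP63. The groups were far apart, and the rise was 1.76 ± 0.053 (SE), or 3.39-fold, with a limma adjusted p of 1.39e-07. Its relatives NFE2L2, which encodes the antioxidant regulator NRF2, and NFE2L1 moved the other way and fell by 0.40 (SE 0.050) and 0.32 (SE 0.044), with limma adjusted p of 0.000233 and 0.000414. ATF2, a partner of c-Jun at cyclic AMP-type elements, fell by 0.40 (SE 0.042, limma adjusted p = 9.05e-05). CREM fell by 0.34 (SE 0.051, limma adjusted p = 0.000688) with both groups under the background level, where differences are compressed. The other rise was that of BATF2, by 0.18 (limma adjusted p = 0.0124), named after its value was seen.

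Of 14 genes that restrain AP-1, 1 (7.14%) rose and 6 (42.9%) fell. They are MAP kinase phosphatases and ubiquitin ligase parts that turn over FOS or JUN. Of all genes 16.4% rose and 25.1% fell, and the median of the 14 was -0.06. In the brightest bin 3 of 4 fell, against 44% of all genes, and in the next 1 of 4, against 43%. In the middle bin 1 of 5 fell, against 25.4%, and in the bin below 1 of 1, against 8.67%. After cyclic loess 3 of the 14 rose and 5 fell, and after another quantile normalization 3 rose and 6 fell. DUSP4, a nuclear phosphatase of ERK and JNK, rose by 0.31 ± 0.046 (SE), whereas DUSP7 fell by 0.38 (SE 0.042), DUSP14 by 0.37 (SE 0.056) and DUSP10, which prefers JNK and p38 kinases, by 0.24 (SE 0.042). Their limma adjusted p ranged from 0.000114 to 0.00158. DET1, part of a ligase that marks c-Jun for degradation, fell by 0.63 (SE 0.064, limma adjusted p = 7.96e-05) at its brighter probe set, from 8.76 to 8.13, while its other probe set went from 7.14 to 7.41. With both averaged the difference was -0.18 and did not pass (limma adjusted p = 0.144).

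**Figure D4:**
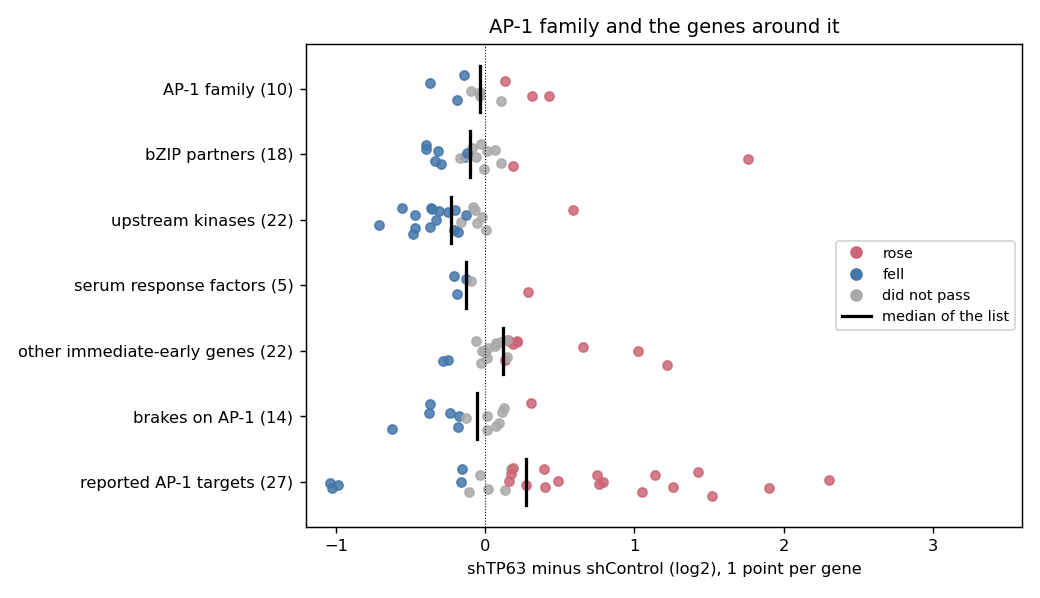
Differences of the AP-1 family and of 6 lists of genes around it (x axis, shTP63 minus shControl, log2; 1 point per gene, black bar the median of the list, number of measured genes in brackets, heights within a list arbitrary). The upstream kinases lie mostly below 0 with a median of -0.23 and the reported targets mostly above it with a median of 0.27.

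Of 22 other immediate-early genes, which are induced by the same signals as FOS and JUN, 9 rose and 2 fell, around a median of 0.12. That is 40.9% rising against 16.4% of all genes, and 9.09% falling against 25.1%. In the brightest bin 4 of 6 rose, against 25.3% of all genes, and in the next 2 of 5, against 18.5%. In the middle bin 2 of 7 rose, against 18%, and in the bin below 1 of 4, against 13.7%. SGK1, a kinase induced by serum and glucocorticoid, stood at 7.29, 7.25 and 7.35 in shControl and at 8.57, 8.38 and 8.59 in shTP63, a rise of 1.22 ± 0.062 (SE, limma adjusted p = 2.29e-06). IER3, a stress-induced survival gene, stood at 10.65, 10.67 and 10.66 in shControl and at 11.66, 11.66 and 11.73 in shTP63, a rise of 1.02 ± 0.043 (SE, limma adjusted p = 8.39e-07). The matricellular gene CCN1 rose by 0.65 ± 0.055 (SE, limma adjusted p = 2.93e-05). The falls were those of MYC, by 0.25 (SE 0.041, limma adjusted p = 0.00101), and of the orphan nuclear receptor NR4A2, by 0.29 (SE 0.047, limma adjusted p = 0.00113). With every array centred on its median 3 of these genes rose and 3 fell, with a median of 0.01, and 4 rose and 2 fell in the unmoderated model. With the replicate number as a block 7 rose, after another quantile normalization 9, after cyclic loess 11 and with a trended robust prior 12. In each of these settings 2 fell.

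Of 27 measured genes reported as AP-1 targets, 17 rose and 5 fell, around a median of 0.27. That is 63% rising against 16.4% of all genes, and 18.5% falling against 25.1%. In the brightest bin 8 of 11 rose, against 25.3% of all genes, and in the next 4 of 5, against 18.5%. In the middle bin 3 of 6 rose, against 18%, and in the bin below 2 of 4, against 13.7%. In the dimmest bin 0 of 1 rose, against 6.33%. This list, like the others, was chosen with earlier results of these data known and was not tested as a set. The levels of 4 of the 27 lay under background. The proteases and their receptor and inhibitor were higher in 7 of 8 by the test and 1 did not pass, and all 7 measured cytokine and growth factor genes rose. PLAUR, the urokinase receptor, stood at 9.30, 9.20 and 9.34 in shControl and at 10.61, 10.72 and 10.79 in shTP63, a rise of 1.43 ± 0.059 (SE, limma adjusted p = 8.39e-07). Its ligand PLAU, the urokinase plasminogen activator, stood at 11.11, 11.18 and 11.13 in shControl and at 11.93, 11.88 and 11.91 in shTP63, a rise of 0.77 ± 0.043 (SE, limma adjusted p = 3.79e-06). The collagenase MMP13 stood at 10.59, 10.52 and 10.38 in shControl and at 11.88, 11.72 and 11.66 in shTP63, a rise of 1.26 ± 0.074 (SE, limma adjusted p = 4.82e-06). Every shTP63 array lay above every shControl array in these 3 genes. IL6, an inflammatory cytokine whose promoter binds AP-1 beside other factors, stood at 7.45, 7.40 and 7.44 in shControl and at 9.03, 8.94 and 8.89 in shTP63, a rise of 1.52 ± 0.049 (SE, limma adjusted p = 2.36e-07). CXCL8 and PTGS2 had the largest rises on the list, by 2.30 ± 0.049 and 1.90 ± 0.041 (SE).

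**Figure D5:**
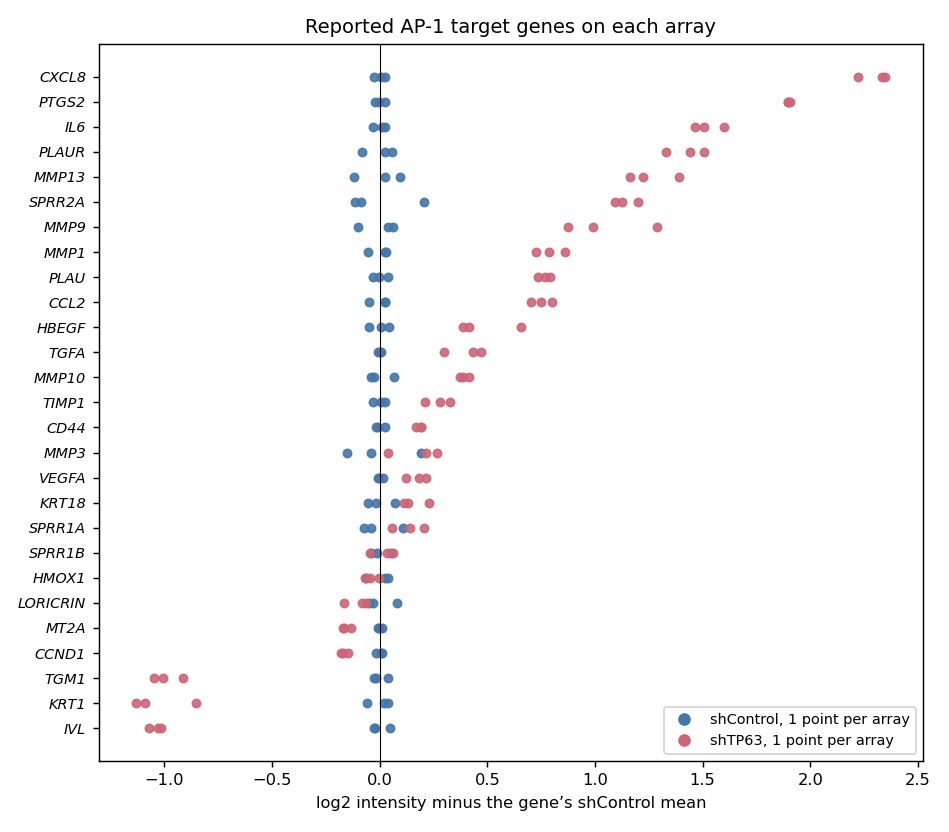
Reported AP-1 target genes on each array (x axis, log2 intensity minus the gene's shControl mean; 1 point per array, genes ordered by their difference). The shTP63 points of 17 genes that rose lie to the right, from CXCL8 at 2.30 downwards, and those of IVL, KRT1 and TGM1 lie near -1.0.

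Of the 7 differentiation genes among the reported targets, 3 fell (42.9%, against 25.1% of all genes), 1 rose and 3 did not pass. IVL, which encodes involucrin, a cornified envelope protein whose gene is a classical AP-1 target in keratinocytes, stood at 11.20, 11.21 and 11.28 in shControl and at 10.20, 10.16 and 10.22 in shTP63. The difference of IVL was -1.04 ± 0.044 (SE) and TGM1, the envelope cross-linking enzyme, fell by 0.99 (SE 0.049), with limma adjusted p of 8.85e-07 and 2.14e-06. The remaining falls on the list, outside the naming rule and picked out with their values known, were KRT1 by 1.02, CCND1, which encodes cyclin D, by 0.17 and the metallothionein MT2A by 0.16. SPRR2A, a small proline-rich envelope protein gene also named after its value was seen, rose by 1.14, from a shControl level under the background level. Over the 8 alternative scalings, fits and filters, 14 to 17 of the listed targets rose and 4 to 7 fell, and 12 to 20 of the upstream kinases fell with 1 rising.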

How the data were processed

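Messenger RNA of 6 HaCaT samples, 3 shControl and 3 shTP63, was measured on 1-colour arrays. The authors used RMA and R 2.15.1, per the submitters' processing notes. RMA as usually run corrects background, brings the probes of all arrays to 1 distribution and summarises probe sets, which can remove a shift shared by a whole array; the medians of the deposited values still differed between the groups. Per the labels' protocols cDNA was primed with oligo-dT and biotinylated cRNA was made; whether these arrays were labelled in that way is uncertain. Deposited intensities were linear, and their log2 was taken here without a pseudocount. The genome build of the array design is not given in the sources used here, and TP63 is not reported here.

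Gene names were taken from GEO's platform annotation (19158 probe sets with 1 gene, 1388 with several, 11775 unlisted), updated through Entrez identifiers (19128 matched RefSeq on GRCh38.p14). For each of 18404 genes the probe set with the highest mean was used; 637 genes had several. Groups came from the sample titles. The test was two-sided, from lmFit and eBayes of limma 3.58.1 (R 4.3.3) without covariates. P-values were adjusted by Benjamini-Hochberg across all 18404 genes, and genes under 0.05 were called. The members, the 6 lists of genes around them (108 measured of 121) and the marker lists were chosen with earlier results of these data known, from general knowledge; no list was tested as a set. The text names all members, up to 5 genes a list (8 of the reported targets) with the smallest adjusted p among those passing, and the 3 genes most correlated with JUN and with JUND. Same-numbered replicates were checked for pairing: their deviations from the group means correlated at -0.15, -0.0368 and 0.125 over genes. No pairing by number showed over all genes together, but this cannot exclude pairing that touched only some genes. The fit was tested on simulated data. Arrays give no counts, so 3 arrays a group limit the precision, with a median SE of 0.053. The 14 alternatives were 3 other scalings, a block for the replicate number, dropping the dimmest 40% of probe sets, averaging a gene's probe sets, a trended robust prior, an unmoderated model and leaving out each array.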

Additional observations from a re-analysis of the deposited data

How the results depend on the processing

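Of 671 values of named genes under the alternatives, 638 kept their direction and their side of the threshold, 24 lost a call, 6 gained one and 3 changed sign. JUN ranged from 0.32 to 0.49, FOSL1 from 0.20 to 0.36, JUND from -0.48 to -0.31 and ATF3 from -0.30 to -0.16, with calls throughout. FOSB and BATF, which never passed, changed sign when 1 array was left out: FOSB then ranged from -0.084 to 0.014 and BATF from -0.091 to 0.012, and over all alternatives they reached down to -0.14 and -0.15. The family's count of 6 calls was 4 to 6 with 1 array left out, 4 with the replicate number as a block and in the unmoderated model, 7 after cyclic loess and with a trended robust prior, and 8 after another quantile normalization. The replicate block took the calls of FOS (adjusted p = 0.0615), JUNB (adjusted p = 0.0617) and SRF (adjusted p = 0.0716) among the named genes, and the calls over all genes went from 7634 to 7165. Centring each array on its median shifted the median of all genes' differences from -0.01 to -0.12, giving 1782 rises and 7932 falls in place of 3015 and 4619, so falls made up 81.7% of the calls against 60.5% (69% after another quantile normalization). With that centring JUNB stood at 0.02 and FOSL2 at 0.00, both above the median of all genes. Differences under about 0.2 depended on the scaling for FOSL2, JUNB, MAFF and SRF, and dim probe sets near the background level compress true changes.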
